A study of Rattus norvegicus with 16 samples.

Results

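Adrenergic receptors are the cell surface proteins through which noradrenaline and adrenaline act, and 8 of their genes were followed in the gustatory cortex (GC), the taste area of the insular cortex. They were chosen by symbol, as every probe set that the array annotation pairs with Adra1a, Adra1b, Adra1d, Adra2a, Adra2b, Adra2c, Adrb1 or Adrb3. Each of the 8 genes had 1 probe set, so 8 of the 15209 probe sets paired with 1 gene (14497 genes) are described, and none was absent or lost to a filter. The samples were 16 male rats, Wistar Hola by the study's methods, with 1 Affymetrix RaGene 1.1 ST v1 array per rat. The rats were 2 months old by the labels, whereas the methods give an older range of ages. After 3 days of water restriction, 4 rats drank 0.1% saccharin, an unfamiliar taste, and were killed 3 h later (saccharin 3 h), 4 drank water, the familiar taste, and were killed 3 h later (water 3 h), 4 drank saccharin and were killed 1 h later (saccharin 1 h), and 4 drank water and were killed 1 h later (water 1 h). All rats drank, so no group shows the level before drinking, and the animals carried no transgene. Values are log2 levels after robust multi-chip averaging (RMA), in which a step of 1 is a doubling of signal, and every difference is given as 3 h minus 1 h or as saccharin minus water.

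Noradrenaline reaches the cortex in axons of the locus coeruleus, a brainstem nucleus known for its firing to novelty and arousal, so cortical tissue holds the receptors but not the cell bodies that make the transmitter. The receptors form 3 families. The alpha1 receptors (Adra1a, Adra1b, Adra1d) act through Gq proteins and phospholipase C, the alpha2 receptors (Adra2a, Adra2b, Adra2c) act through Gi proteins, lower cAMP and include the autoreceptors that restrain noradrenaline release, and the beta receptors (Adrb1, Adrb3) act through Gs proteins and raise cAMP. Beta and alpha receptors are both known for roles in attention and in the storage of memory.

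The promoters of 3 receptors are shown because theirs were the probe sets of the 8 with an unadjusted p under 0.05 in at least 1 comparison below. RefSeq windows (build GRCr8, 250 bases before and 50 bases after a start) matched 6 of the 8 genes, all but Adra1a and Adrb3. For 5 of them the window lies at the start of the gene, and that of Adra1b lies inside the annotated gene, at a start other than the outermost one. The capitals mark matches on either strand to 3 short motifs, and no match overlapped another. The first motif is the core of the cAMP response element, TGACG. The second is the box bound by Sp1, with the letters GGGCGG. The third is the binding motif of the factor NF-Y, CCAAT. The complete cAMP response element TGACGTCA was searched in the same way. Also searched were the E-box, spelled CACGTG, and the TATA box, spelled TATAAA. The minus strand is shown for Adra1d (chr3:139262282-139262581) and Adra2c (chr14:79697427-79697726) and the plus strand for Adrb1 (chr1:265776853-265777152).
Adra1d: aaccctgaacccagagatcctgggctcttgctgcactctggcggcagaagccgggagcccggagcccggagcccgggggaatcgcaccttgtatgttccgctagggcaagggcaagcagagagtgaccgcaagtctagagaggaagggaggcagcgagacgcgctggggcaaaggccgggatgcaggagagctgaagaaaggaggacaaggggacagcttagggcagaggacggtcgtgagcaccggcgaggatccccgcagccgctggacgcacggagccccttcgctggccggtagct
Adra2c: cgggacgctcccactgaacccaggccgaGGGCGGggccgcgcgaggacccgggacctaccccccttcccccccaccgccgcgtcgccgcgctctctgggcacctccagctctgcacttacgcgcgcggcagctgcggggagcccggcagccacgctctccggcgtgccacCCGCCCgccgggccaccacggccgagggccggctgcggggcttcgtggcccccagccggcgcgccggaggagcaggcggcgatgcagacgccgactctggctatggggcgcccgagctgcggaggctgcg
Adrb1: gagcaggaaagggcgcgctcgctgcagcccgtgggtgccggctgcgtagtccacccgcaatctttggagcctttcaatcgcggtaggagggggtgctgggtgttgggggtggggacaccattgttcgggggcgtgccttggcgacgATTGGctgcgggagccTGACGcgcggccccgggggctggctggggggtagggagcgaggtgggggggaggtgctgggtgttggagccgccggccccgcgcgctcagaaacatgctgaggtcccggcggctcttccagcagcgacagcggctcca
Adrb1 was the only one of the 6 promoters with the core TGACG, which stood 88 bases before the gene start and is found in 21.2% of 33469 rat promoters of this length. None of the 6 held the complete element, the E-box or the TATAAA motif, which stand in 1.83%, 6.42% and 14.2% of all promoters. GGGCGG (33.1% of all promoters) occurred in those of Adra2b and Adra2c and in the window of Adra1b inside its gene, and CCAAT (37.5%) only in that of Adrb1 among the 6. The 6 windows were 65.7% to 79.0% G and C, above the median of 51.7% over all promoters. By the same search the promoter of Dusp1, an early gene that fell steeply between 1 h and 3 h, held 3 cores. Of these 3 cores, 2 belong to 1 full element. The promoter of Nr4a1, another such gene, held 4 cores, and Fos, a further one, had no window to search. A link between cores and change over time was not tested. A match is a description of letters and not of a site in use.

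The arrays had medians of 5.08 to 5.16 and pairwise correlations of 0.994 to 0.997 over 120 pairs. The arrays had been normalized together, which makes medians alike, and probe sets differ widely in level, which makes such correlations high. These values therefore do not measure the quality of arrays or RNA. The time labels were checked on the early genes Fos, Dusp1 and Nr4a1, whose 3 h minus 1 h differences averaged over tastes were -1.18, -1.52 and -1.72 (adjusted p of 8.56e-06, 5.21e-07 and 8.81e-06 in limma). The mean of these 3 genes per array ran from 6.33 to 6.75 in saccharin 3 h and from 6.48 to 7.55 in water 3 h. It ran from 8.16 to 8.39 in saccharin 1 h and from 8.01 to 8.39 in water 1 h. The highest 3 h array was C365 of water 3 h, at 7.55. The 3 h rats have array numbers from C365 to C372 and the 1 h rats numbers from C373 to C380, and an effect of array order and an effect of time cannot be told apart. Markers of excitatory cortical neurons averaged 10.3 to 10.5 per array, whereas the noradrenergic neuron genes Dbh and Slc6a2 averaged 3.88 and 3.69, close to the 95th percentile of 3.50 among 142 vomeronasal receptor probe sets, which served as a guide to dim signal. Phox2a, the third noradrenergic gene measured and a transcription factor, averaged 4.56. All 8 receptors averaged above that percentile, with Adrb3 nearest to it at 3.86 and Adra2b next at 4.56. The other 6 averaged between 5.09 for Adra1b and 6.86 for Adra2c, where the median probe set tested was at 6.15. These means place each probe set within the range of signals and do not rank the receptors, because probe sets differ in how strongly they bind. In bulk tissue fewer cells of a type and less RNA per cell cannot be told apart.

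Adra1d, an alpha1 receptor found in cortex and hippocampus, showed the clearest separation of the 8. Its level was 6.50, 6.64, 6.63 and 6.50 in saccharin 3 h rats, against 6.36, 6.47, 6.41 and 6.46 in water 3 h rats. In saccharin 1 h rats it was 6.42, 6.47, 6.40 and 6.40, against 6.43, 6.47, 6.49 and 6.37 in water 1 h rats. All 4 saccharin 3 h arrays lay above all 12 other arrays, whose highest value was 6.49, and the other 3 groups overlapped. The gap was small: the saccharin 3 h mean was 6.57 ± 0.07, against 6.42 ± 0.05 in water 3 h, 6.42 ± 0.03 in saccharin 1 h and 6.44 ± 0.05 in water 1 h (SD, n = 4 each). After saccharin the 3 h minus 1 h difference was 0.14 (SE 0.047, 1.11-fold, unadjusted p = 0.00702, adjusted p = 0.355 in limma), and after water it was -0.013 (SE 0.047, adjusted p = 0.977). At 3 h the saccharin minus water difference was also 0.14 (SE 0.047, unadjusted p = 0.00788, adjusted p = 0.999). Both comparisons share the saccharin 3 h arrays, and each reached the smallest two-sided p of 0.0286 that an exact permutation test of 4 against 4 arrays can give. Over all probe sets, arrays of the 2 groups did not overlap for 4.78% over time after saccharin and for 1.91% between tastes at 3 h. The share of probe sets with 1 group apart from all 12 other arrays was not counted. The difference between the changes over time after saccharin and after water was 0.16 (SE 0.067, unadjusted p = 0.0308, adjusted p = 1.00), so neither this nor the other comparisons of Adra1d passed the threshold over all probe sets.

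Adra1a, the alpha1 receptor best known from smooth muscle and also made by cortical interneurons, showed no such separation. Its level was 6.89, 6.80, 6.73 and 6.66 in saccharin 3 h rats, against 6.92, 6.78, 6.76 and 6.79 in water 3 h rats. In saccharin 1 h rats it was 6.61, 6.71, 6.93 and 6.61, against 6.70, 6.79, 6.74 and 6.75 in water 1 h rats. The widest spread was within saccharin 1 h (SD 0.15, n = 4), where array C379 held the highest value of all 16 and 2 arrays held the lowest values. Its change over time was 0.054 after saccharin and 0.065 after water (SE 0.068 each, adjusted p of 0.915 and 0.895 in limma).

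Adra1b, an alpha1 receptor of cortex and liver, averaged 5.11 ± 0.09 in saccharin 3 h, 5.06 ± 0.17 in water 3 h, 5.04 ± 0.07 in saccharin 1 h and 5.16 ± 0.08 in water 1 h (SD, n = 4 each). The 3 h minus 1 h difference was 0.062 after saccharin and -0.096 after water (SE 0.073 each), and the difference between these changes was 0.16 (SE 0.10, unadjusted p = 0.145, adjusted p = 1.00 in limma). Array C365 of water 3 h, at 5.29, held the highest value of the 16, while the other water 3 h arrays stood at 4.94, 4.92 and 5.09. Without C365 the difference after water was -0.17 (unadjusted p = 0.0160, adjusted p = 0.691 in limma) and the difference between the changes was 0.24 (unadjusted p = 0.0162, adjusted p = 1.00). Without C367 or C369 of water 3 h the difference after water was -0.056 or -0.050. The groups overlapped in every comparison.

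Adra2c, an alpha2 receptor that acts as an autoreceptor on noradrenergic terminals and is also made by striatal neurons, had the smallest p-value of the 8 for taste at 1 h and for taste averaged over times, while Adra1d had it at 3 h. Its level was 6.87, 6.90, 6.89 and 6.78 in saccharin 3 h rats, against 7.02, 6.86, 6.92 and 6.94 in water 3 h rats. In saccharin 1 h rats it was 6.76, 6.88, 6.73 and 6.63, against 6.90, 6.86, 6.96 and 6.91 in water 1 h rats. Only array C377 of saccharin 1 h reached into the range of water 1 h, and the 2 lowest values of all 16 were from saccharin 1 h. The saccharin minus water difference was -0.16 at 1 h (SE 0.054, 0.897-fold, unadjusted p = 0.0103, adjusted p = 1.00 in limma) and -0.072 at 3 h (SE 0.054, adjusted p = 0.999). Averaged over both times it was -0.11 (SE 0.038, unadjusted p = 0.00844, adjusted p = 1.00), with an exact permutation p of 0.00735 when labels were permuted within each time. After saccharin the change over time was 0.11 (SE 0.054, adjusted p = 0.652), against 0.024 after water (SE 0.054, adjusted p = 0.956).

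Adra2a, the main alpha2 receptor of the cortex, both an autoreceptor and a receptor of the target neurons, stood nearly level over the groups. Its means were 6.48 ± 0.10 in saccharin 3 h, 6.46 ± 0.07 in water 3 h, 6.46 ± 0.16 in saccharin 1 h and 6.51 ± 0.06 in water 1 h (SD, n = 4 each), a span of 0.053 that was the narrowest of the 8 receptors. The saccharin 1 h arrays fell into a pair at 6.29 and 6.35 and a pair at 6.56 and 6.62, which included the lowest and the highest values of all 16 arrays. The 95% intervals of its changes over time were -0.12 to 0.17 in the saccharin groups and -0.20 to 0.094 in the water groups.

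Adra2b, an alpha2 receptor that in the brain is known mainly from the thalamus, was dim here. Its level was 4.69, 4.66, 4.61 and 4.55 in saccharin 3 h rats, against 4.60, 4.47, 4.62 and 4.52 in water 3 h rats. In saccharin 1 h rats it was 4.65, 4.48, 4.43 and 4.49, against 4.63, 4.39, 4.60 and 4.61 in water 1 h rats. The 2 highest values belonged to saccharin 3 h, but all groups overlapped. The change over time was 0.11 after saccharin (SE 0.062, unadjusted p = 0.0842, adjusted p = 0.701 in limma) and -0.0045 after water (SE 0.062, adjusted p = 0.994).

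Adrb1, the main beta receptor of the cortex and the heart, was the receptor that differed most in size over time. Its level was 6.52, 6.51, 6.89 and 6.93 in saccharin 3 h rats, against 6.69, 6.82, 6.86 and 6.82 in water 3 h rats. In saccharin 1 h rats it was 6.96, 6.94, 6.78 and 7.10, against 6.81, 7.12, 6.80 and 6.90 in water 1 h rats. The saccharin 3 h arrays fell into 2 pairs about 0.4 apart, of which the low pair (C366 and C368) held the lowest values of all 16 and the high pair lay within the range of the 1 h arrays. The 3 h minus 1 h difference was -0.17 averaged over tastes (SE 0.069, 0.888-fold, unadjusted p = 0.0244, adjusted p = 0.314 in limma), with an exact permutation p of 0.0527 when labels were permuted within each taste. It was -0.23 after saccharin (SE 0.098, unadjusted p = 0.0295, adjusted p = 0.563) and -0.11 after water (SE 0.098, adjusted p = 0.885). The 2 changes differed by -0.12 (SE 0.14, adjusted p = 1.00). Markers of leptomeninges and fibroblasts, the cells that cover the cortex, were also lower at 3 h. All 7 measured markers had negative differences over time in both tastes, and none passed the adjusted threshold in limma. At an unadjusted p under 0.05 there were 7 after saccharin, 1 after water and 6 averaged over tastes. The shares over all probe sets were 7.98%, 7.23% and 12%. Their mean level per array ran from 5.74 to 6.47 in saccharin 3 h, 6.07 to 6.44 in water 3 h, 6.36 to 6.67 in saccharin 1 h and 6.32 to 6.61 in water 1 h. Their part in the values of Adrb1 and of the other receptors was not tested.

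Adrb3, a beta receptor best known from fat tissue, was the dimmest of the 8 and lay at the 96.5th percentile of the vomeronasal receptor probe sets. Its means were 3.91 ± 0.09 in saccharin 3 h, 3.83 ± 0.05 in water 3 h, 3.85 ± 0.03 in saccharin 1 h and 3.85 ± 0.15 in water 1 h (SD, n = 4 each). The lowest and the highest of the 16 values, 3.67 and 4.03, were both from water 1 h. No difference between groups exceeded the spread within water 1 h, and the largest was the saccharin minus water difference of 0.083 at 3 h (SE 0.066, adjusted p = 0.999 in limma).

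**Figure D1:**
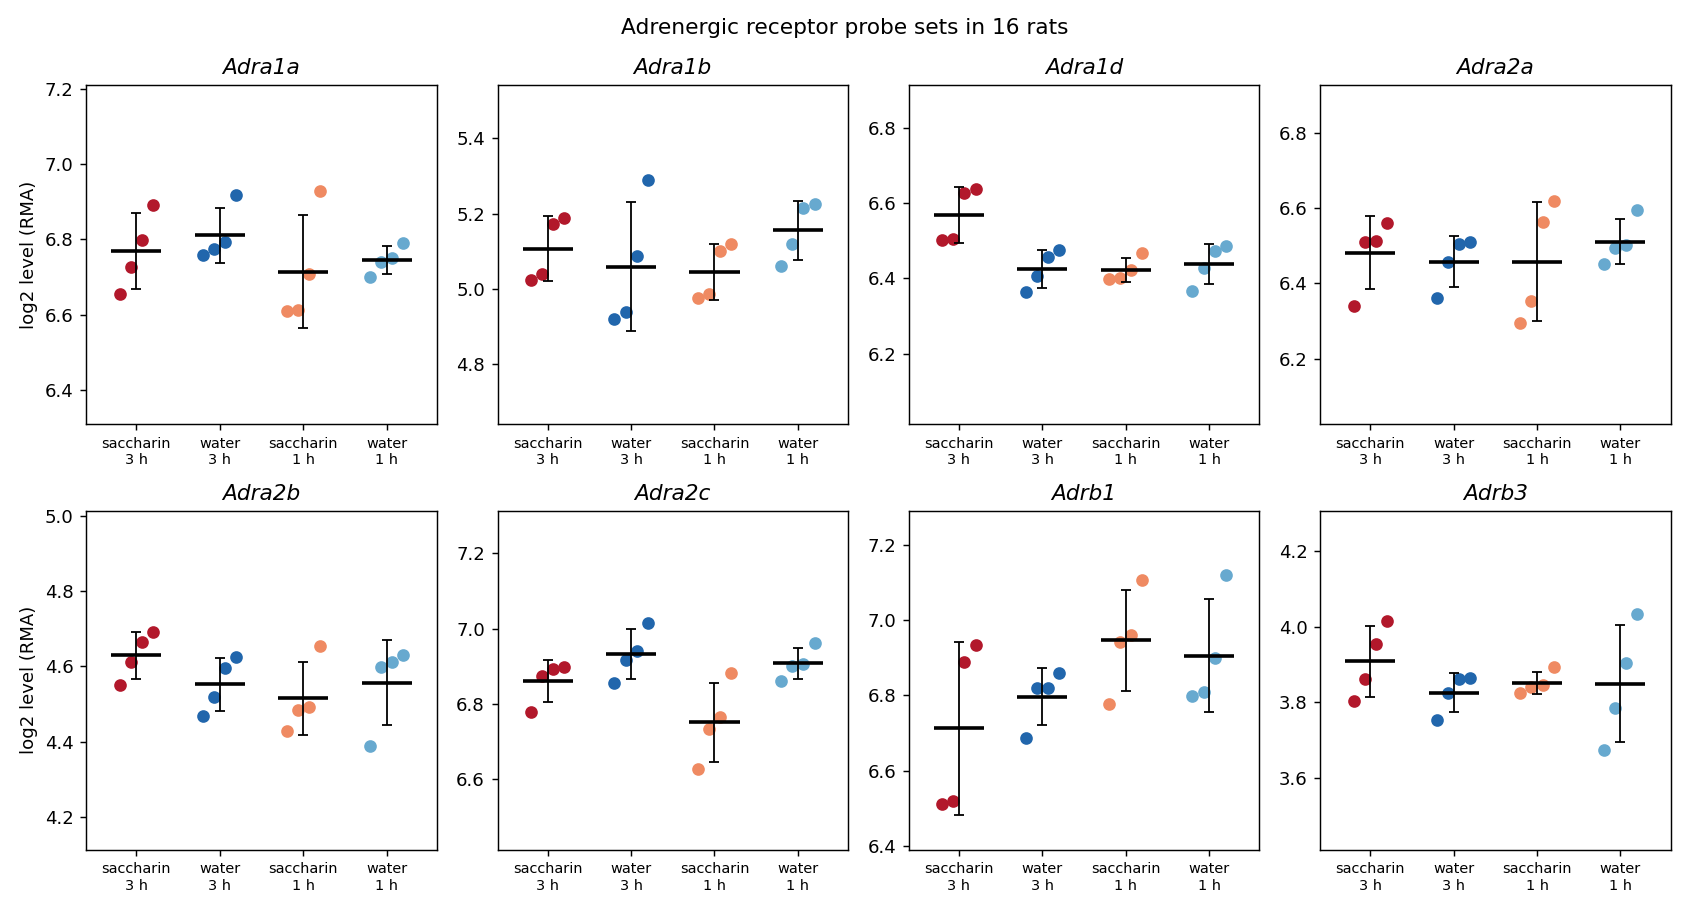
Log2 levels of the 8 adrenergic receptor probe sets (y axis, 1 panel per gene, each spanning the same 0.9 log2 units) in saccharin 3 h, water 3 h, saccharin 1 h and water 1 h rats (x axis). Points are single rats, lines are group means and bars are 1 SD (n = 4 each). All 4 saccharin 3 h points of Adra1d lie above every other point of that gene, a pattern whose share over all probe sets was not counted. The saccharin 3 h points of Adrb1 form a low pair at 6.51 and 6.52 and a high pair at 6.89 and 6.93.

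Time after drinking was tested first. After saccharin, 7 of the 8 receptors had higher means at 3 h and Adrb1 had a lower one, with differences from -0.23 to 0.14 and a median of 0.060, against a median of -0.0023 over all probe sets. None of the 8 passed an adjusted p of 0.05 in limma, and 0.348% of all probe sets did. At an unadjusted p under 0.05 there were 2 of 8 (Adra1d, positive, and Adrb1, negative), where the share over all probe sets was 7.98%. The arrays of both times did not overlap for 1 of 8 (Adra1d), and for 4.78% of all probe sets. With 8 members, 1 or 2 genes make the whole of such a count.

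After water, 2 of the 8 (Adra1a and Adra2c) had higher means at 3 h and 6 had lower ones, with differences from -0.11 to 0.065 and a median of -0.018 against 0.0023 over all probe sets. No receptor passed the adjusted threshold (0.125% of all probe sets did), none had an unadjusted p under 0.05 (7.23% of all probe sets did), and none had arrays that did not overlap (4.35% of all probe sets did). Averaged over tastes, 0 of 8 passed the adjusted threshold, beside 1.01% of all probe sets, and 1 of 8 (Adrb1) had an unadjusted p under 0.05, beside 12% of all probe sets. The median size of this difference, without sign, was 0.057 for the receptors and 0.040 over all probe sets.

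Saccharin, the unfamiliar taste, was then set against water, the familiar one. No group drank familiar saccharin, so an effect of familiarity and an effect of the taste itself cannot be told apart. At 3 h, 5 receptors had higher means after saccharin and 3 had lower ones. None passed the adjusted threshold, as did none of the 15209 probe sets (0%), and 1 of 8 (Adra1d) had an unadjusted p under 0.05 and arrays that did not overlap, beside 3.37% and 1.91% of all probe sets. At 1 h, 2 receptors had higher means after saccharin and 6 had lower ones. No probe set passed the adjusted threshold (0%), 1 receptor (Adra2c) had an unadjusted p under 0.05, beside 3.06% of all probe sets, and none had arrays that did not overlap, beside 1.5%. Averaged over times, 0 of 8 passed in limma (0% of all probe sets) and 1 of 8 (Adra2c) had an unadjusted p under 0.05 (3.39% of all). For the difference between the changes over time, 0 of 8 passed (0% of all) and 1 of 8 (Adra1d) had an unadjusted p under 0.05 (2.96% of all).

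The intervals show what these arrays could have missed. Over the 8 receptors and the 4 comparisons between 2 groups, the 95% confidence intervals lay between -0.44 (0.738-fold, for Adrb1 after saccharin) and 0.25 (1.19-fold). The early genes above had differences over time larger than any of these bounds in both tastes. The intervals are not adjusted for the number of comparisons. They left out 0 for Adra1d and Adrb1 after saccharin, for Adra1d at 3 h and for Adra2c at 1 h. After adjustment over all probe sets, no receptor difference could be told from 0 with 4 rats a group. A p that missed the threshold does not show that the levels were equal.

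**Figure D2:**
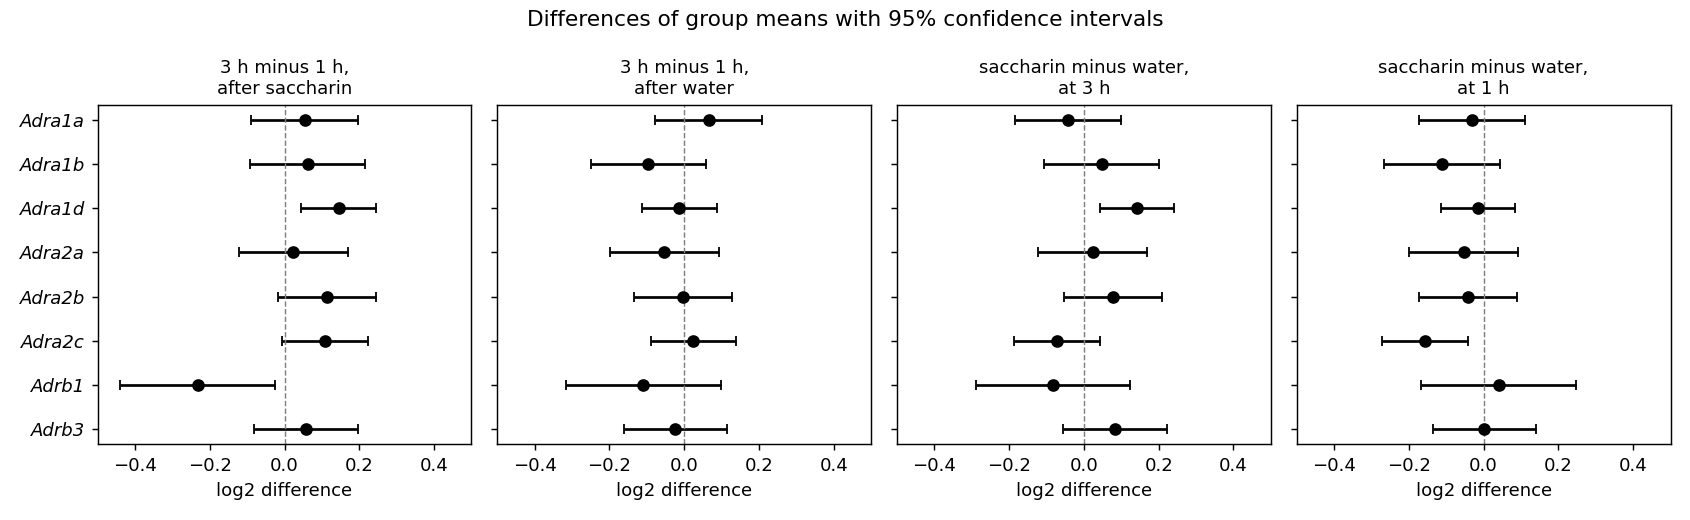
Differences of group means on the log2 scale (x axis) for each receptor (y axis), in 4 panels, which are 3 h minus 1 h after saccharin and after water and saccharin minus water at 3 h and at 1 h. Points are limma estimates from the fit of all 16 arrays and bars are 95% confidence intervals. The intervals leave out 0 for Adra1d and Adrb1 after saccharin, for Adra1d at 3 h and for Adra2c at 1 h, before adjustment over 15209 probe sets.

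The receptors also differed in how much single rats varied within a group. The pooled SD within groups was 0.157 for Adrb1, which was at percentile 92.7 of all probe sets, and 0.055 for Adra1d, which was at percentile 8.33. The other 6 lay between 0.071 for Adra2c and 0.11 for Adra1b, around the median of 0.093. The difference of 0.14 in Adra1d thus came from a probe set with little spread, and the larger one of -0.23 in Adrb1 from a probe set with much.

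The receptors were also compared from rat to rat, and no pair of them passed an adjusted p of 0.05 by r or by rho. After each group's mean was subtracted, Adrb1 correlated with Adra1b at r = -0.65 (rho = -0.74) over the 16 arrays, with a permutation p of 0.00318 for r and 0.00381 for rho, and adjusted p of 0.0890 and 0.107 over the 28 pairs of receptors. With Adra1a it correlated at r = -0.63 (rho = -0.66, permutation p of 0.0222 and 0.0231, adjusted p of 0.311 and 0.299). Within the groups of 4 arrays, given as a description, r with Adra1b was -0.99 in saccharin 3 h, -0.93 in water 3 h, -0.57 in saccharin 1 h and -0.66 in water 1 h. With Adra1a it was -0.90 in saccharin 3 h, -0.99 in water 3 h and -0.89 in saccharin 1 h, but 0.88 in water 1 h, so the last group ran the other way. Without the 2 arrays farthest from the median of the alpha receptor, r was -0.71 for Adra1b and -0.47 for Adra1a. Adrb1 was also negative with Adra2c (r = -0.50) and Adra2b (r = -0.47), and the highest positive values were between Adra1b and Adra2b (r = 0.47) and between Adra1b and Adra1a (r = 0.46). All values of 1 array share 1 hybridisation, and the part of differences between arrays in these correlations was not tested.

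**Figure D3:**
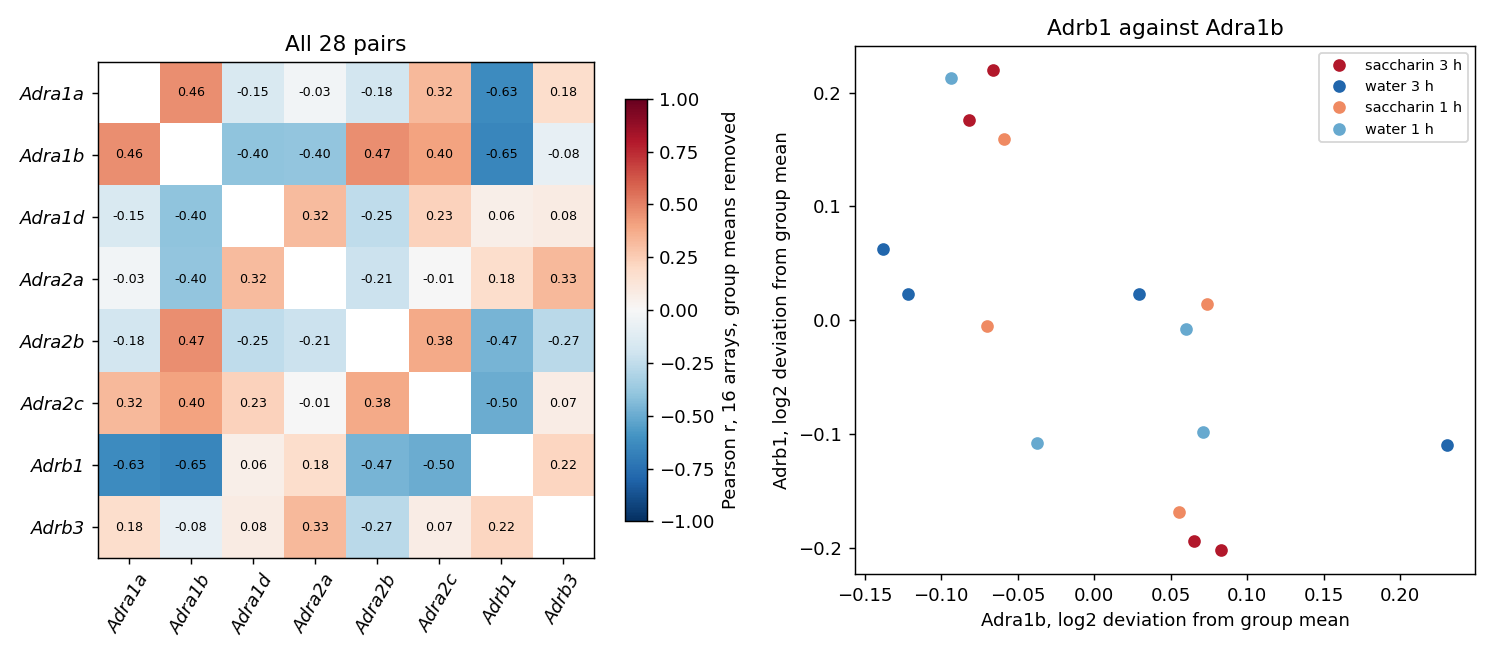
Left, Pearson r for each of the 28 pairs of receptors over 16 arrays after subtraction of group means, on a colour scale from -1 to 1. Right, the log2 deviation of Adrb1 from its group mean (y axis) against that of Adra1b (x axis), with 1 point per rat coloured by group (saccharin 3 h, water 3 h, saccharin 1 h, water 1 h), where r = -0.65.

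The genes whose levels followed each receptor most closely from rat to rat, with group means subtracted, are a description without a test. They were picked as the 3 highest r among all other probe sets. Maxima picked from so many probe sets over 16 arrays are high by selection, so they do not show that genes vary together. Without subtraction of group means, r ran from 0.12 (Adra1d with Akr7a2) to 0.92 (Adra1a with Cdh19). For Adra1a they were Cdh19 (r = 0.91), Atp11a (0.85) and Dnmt3a (0.85), for Adra1b Fgf1 (0.84), Zbtb42 (0.83) and Tdrd9 (0.82), and for Adra1d Akr7a2 (0.89), N6amt1 (0.87) and Lbr (0.87). Among the alpha2 receptors, Adra2a was followed by R3hdm4 (0.90), Rbfox1 (0.85) and Tm7sf3 (0.84), Adra2b by Esm1 (0.85), Zfp641 (0.84) and Pdgfrl (0.81), and Adra2c by St8sia4 (0.84), Or52s1b (0.82) and Pccb (0.80). Adrb1 was followed by Slc10a1 (0.85), Lamp1 (0.83) and Adap1 (0.83), and Adrb3 by Ptpre (0.88), MAST1 (0.86) and Cts8 (0.83). No 2 receptors shared any of these 24 genes, and no receptor stood among the 3 of another. Fgf1 (mean level 3.45), Esm1 (3.44), Or52s1b (2.84), Slc10a1 (3.16) and Cts8 (2.28) lay under the 95th percentile of the vomeronasal receptor probe sets. Cdh19 (3.57) lay just above it.

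Genes that make or handle noradrenaline or carry the receptors' signal were followed, with the dopamine receptors for comparison, in 9 lists with 72 measured genes, and none of these genes passed the adjusted threshold in any of the 7 comparisons in limma. For time averaged over tastes 12 of 72 had an unadjusted p under 0.05, 7 higher and 5 lower at 3 h, where the share over all probe sets was 12%, and the median difference of the 72 was 0.018 (1.15e-05 over all probe sets). Among the 11 measured genes of noradrenaline synthesis, storage, uptake and breakdown, the smallest p-values belonged to Slc22a3, a low affinity transporter that clears noradrenaline outside the terminals (-0.14, SE 0.047, unadjusted p = 0.00760, adjusted p = 0.192), and to Dbh, the enzyme that makes noradrenaline from dopamine (-0.12, SE 0.059, adjusted p = 0.438).

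Between receptor and second messenger, the 10 G protein alpha subunits had a median difference over time of 0.022, with the smallest p-values for Gna14, of the Gq family (0.17, SE 0.055, adjusted p = 0.170 in limma), and Gnal, of the Gs family (0.16, SE 0.059, adjusted p = 0.257). The 8 measured adenylyl cyclases had a median of 0.015, with Adcy8, a calcium-stimulated cyclase, at -0.11 (SE 0.051, adjusted p = 0.373) and Adcy3 at 0.087 (SE 0.046, adjusted p = 0.484). The 6 protein kinase A subunits had a median of 0.0087, with Prkar2a at -0.048 and Prkar2b at -0.039, and the 8 phospholipase C beta and protein kinase C genes had a median of -0.020, with Plcb1 at -0.056 and Prkcd at -0.095.

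The brakes on receptor signalling come next. Of 9 measured RGS proteins, which speed the shutdown of G proteins, 3 were higher and 3 lower at 3 h at an unadjusted p under 0.05 (12% of all probe sets), and none passed after adjustment. The smallest p-values were those of Rgs12 (0.22, SE 0.066, adjusted p = 0.135 in limma) and Rgs4, an abundant cortical member (-0.096, SE 0.032, adjusted p = 0.187). The 7 receptor kinases and arrestins had a median of 0.040, with Grk3, a kinase of active receptors, at 0.096 (adjusted p = 0.373) and Arrb2, an arrestin, at 0.075 (adjusted p = 0.433). The 8 measured scaffolds had a median of 0.027, with Dlg4, the postsynaptic density protein that binds Adrb1, at 0.056 (adjusted p = 0.443) and Gipc1 at 0.069 (adjusted p = 0.443).

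Dopamine, the precursor of noradrenaline, acts on receptors of its own, which were followed for comparison. Of 5 dopamine receptors, Drd2, a Gi-coupled receptor abundant in striatal neurons, came closest to the threshold, with a difference over time of 0.31 averaged over tastes (SE 0.074, adjusted p = 0.0539 in limma), and Drd1 was at 0.11 (SE 0.067, adjusted p = 0.583). The 8 measured striatal neuron markers, of which Drd1 and Drd2 are 2, had a median of 0.088, and at an unadjusted p under 0.05, which 12% of all probe sets reached, 3 were higher and 1 was lower at 3 h. The part of striatal tissue in the value of Drd2 was not tested. The largest difference among the adrenergic receptors in this comparison was that of Adrb1, at -0.17.

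**Figure D4:**
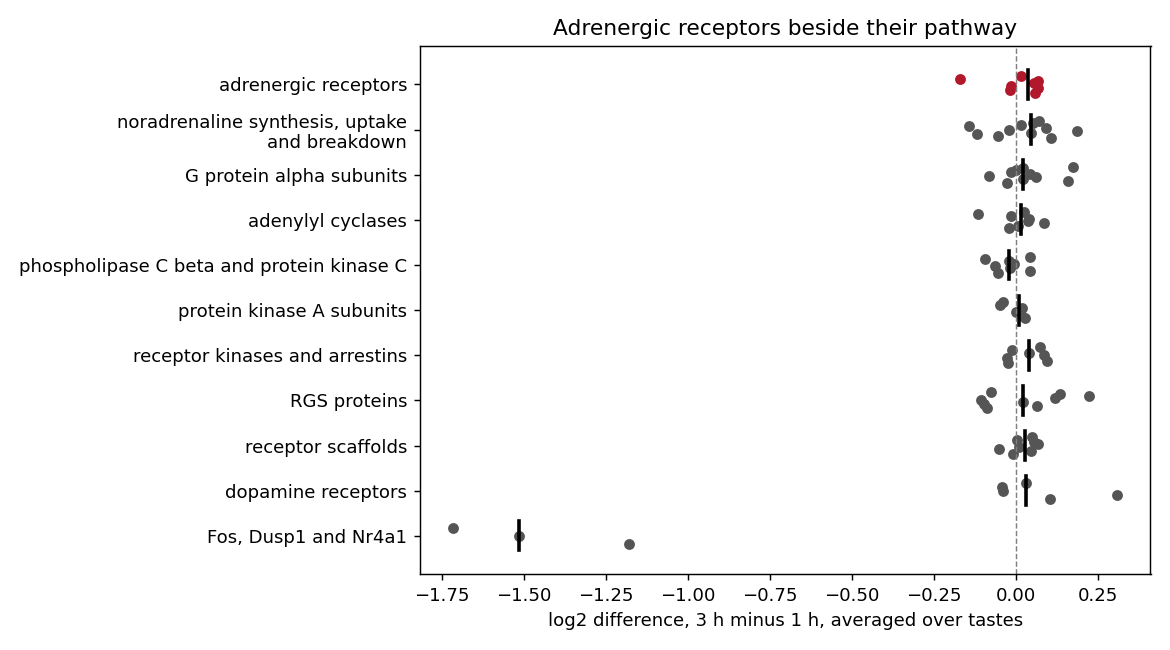
Log2 difference between 3 h and 1 h averaged over tastes (x axis) for each of the 8 adrenergic receptors (red) and each measured gene of 9 lists of their pathway and the dopamine receptors, with Fos, Dusp1 and Nr4a1 in the lowest row. Points are genes and vertical lines are medians of a list. The receptors lie between -0.17 and 0.066, and the 3 early genes lie between -1.72 and -1.18.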

How the data were processed

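Gustatory cortex RNA was measured on 16 arrays, 4 in each of 4 groups, with each rat on an array of its own. Raw files had been read by the authors with affy (version not given in the sources used here), their probe signals quantile normalized together, and each probe set summarised by RMA. What was deposited is thus a table of log2 values, and it was used unaltered. It holds 28826 probe sets, of which 15209 belong to 1 gene in the array annotation and were tested. Another 306 belong to several genes, and 13311 are not listed there and stay unnamed here. The study picked probe sets by its own alignment to an earlier rat assembly, for which this annotation stands in.

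Group means were estimated in 1 limma fit of all 16 arrays (limma 3.58.1, R 4.3.3) with empirical Bayes moderation. The 7 comparisons were 3 h minus 1 h within each taste, saccharin minus water at each time, both averages and the difference between the changes over time. A probe set was called at a Benjamini-Hochberg adjusted p under 0.05 over all 15209, two-sided. Exact permutation tests covered single receptors, and correlations used 100000 permutations of arrays within groups. The fit was run on simulated data with independent values and planted changes larger than any receptor difference here. Its power for differences of the size seen in the receptors was not tested. The number of arrays limits the precision.

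The receptors and all gene lists were chosen with earlier results of these data known. Named beside the receptors are, in each list, genes called in any comparison or else the 2 with the smallest p for time averaged over tastes, the 3 probe sets most correlated with each receptor, and Fos, Dusp1 and Nr4a1. Where a listed gene had several probe sets, the one with the highest mean was taken. Other settings tried were other sets of probe sets, centring, a second quantile normalization, another prior or none, weights for arrays, other models and the loss of each array in turn.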

Additional observations from a re-analysis of the deposited data

Results flagged for a closer look

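The level of Adra2b in array C374 of water 1 h was 4.39, while the other 3 water 1 h arrays lay between 4.60 and 4.63. The gap to the nearest was 0.863 of the range of the group, above the limit of 0.829 for 4 samples. This was the only far array among 32 groups of values (8 receptors in 4 groups), and chance gives about 1 in 20 groups. No receptor had a difference between tastes or times whose own test passed the adjusted threshold.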

How the results depend on the processing

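The 7 counts of called receptors were 0 in limma as reported and 0 under all of the 26 other settings tried, where each applied. The lowest adjusted p of any receptor in any setting was 0.198, for Adrb1 over time averaged over tastes without array C372 of saccharin 3 h. Only 5 receptors were tested when dim probe sets under the median of the table were dropped, since Adra1b, Adra2b and Adrb3 lie under it. Of 56 differences of receptors, 19 turned sign in at least 1 setting, and all 19 were smaller than their standard error. The difference of Adra1d after saccharin ran from 0.12 to 0.17 (adjusted p of 0.213 to 0.612), and its difference between tastes at 3 h from 0.12 to 0.16 (adjusted p of 0.998 to 1.00). That of Adra2c at 1 h ran from -0.20 to -0.11 (adjusted p of 0.999 to 1.00), and that of Adrb1 over time, averaged over tastes, from -0.21 to -0.14 (adjusted p of 0.198 to 0.478). The r of Adrb1 with Adra1b ran from -0.70 to -0.51 over 18 settings (adjusted p of 0.0591 to 0.458), and 0 of 28 pairs of receptors passed in any of them. No paired analysis was possible because the groups share no replicate number. In a comparison of 4 arrays against 4, an exact permutation p cannot fall under 0.0286.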

Other observations

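Slc18a1, a vesicular monoamine transporter and a gene of the noradrenaline list, was singled out after its values were seen. Its mean level was 4.01 ± 0.26 in saccharin 3 h, 4.36 ± 0.31 in water 3 h, 4.20 ± 0.28 in saccharin 1 h and 3.80 ± 0.20 in water 1 h (SD, n = 4 each). The 3 h minus 1 h difference was -0.19 after saccharin (SE 0.16, adjusted p = 0.828 in limma) and 0.56 after water (SE 0.16, adjusted p = 0.317). The difference between them was -0.75 (SE 0.22, unadjusted p = 0.00356, adjusted p = 1.00). For that comparison 1 of the 72 listed genes had an unadjusted p under 0.05, beside 2.96% of all probe sets. Slc18a2, the other vesicular monoamine transporter of the list, averaged 3.49. Its differences were -0.064 after saccharin and 0.019 after water.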
